A study of Rattus norvegicus with 12 samples.

Results

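Levels of 9 genes for transcription factors of the myeloid lineage (Spi1, Runx1, Cebpa, Cebpb, Irf4, Irf5, Irf8, Maf and Klf4) were examined in 12 RNA-seq libraries of rat cells. They were picked by symbol out of 32623 genes listed in the deposited tables, and all 9 passed the filter on low counts, as did 13539 genes in all. The libraries came from cells labelled as primary hepatic stellate cells, which had been separated on a density gradient from livers of rats with cirrhosis after chronic carbon tetrachloride inhalation. For 24 h these cells shared medium, across a Transwell membrane that passes soluble products but not cells, with human cells of the amnion or with vehicle. The human cells, 15000 viable ones per insert, were either epithelial (hAEC) or of the mesenchymal stroma (hAMSC). There were 4 libraries per group, and the labels number them: vehicle 17, 18, 19 and 20, hAEC 3, 4, 11 and 12, and hAMSC 7, 8, 15 and 16. All 3 groups share the cirrhotic origin and the isolation, and no group of healthy rats was analysed here. The strain, sex and age of the rats and the number of human donors were not stated in the labels. Nor do they state if a group's libraries are from different animals or dishes, so the p-values below speak of the spread among these libraries alone, which may be technical.

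Earlier results of these data parted the 12 libraries into a pair of library sets that cross the treatments. Set 1 holds vehicle 17 and 18, hAEC 3 and 4 and hAMSC 7 and 8, and set 2 holds vehicle 19 and 20, hAEC 11 and 12 and hAMSC 15 and 16. Within each group these are the 2 lower and the 2 higher sample numbers. The labels do not name the sets as a batch, an isolation or a date. Because the sets were seen in the expression of all genes, differences between them are given as a description, with no test. Treatments were compared with edgeR (quasi-likelihood F test), the set being a term in the model, and every p was adjusted by the Benjamini-Hochberg method over all 13539 genes tested.

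Myeloid cells are built by a small number of DNA-binding proteins that act in combination. PU.1, encoded by Spi1, opens chromatin at myeloid enhancers, RUNX1 acts before it in blood-forming cells, and C/EBP-alpha drives progenitors toward granulocytes and macrophages. Around this core, IRF8 and KLF4 take part in monocyte formation, C/EBP-beta, IRF4 and IRF5 in responses to infection and cytokines, and c-MAF in the mature state of resident tissue macrophages. The macrophages of the liver sinusoid, the Kupffer cells, require PU.1 and express c-MAF. Stellate cells are of mesenchymal and not of blood origin.

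The labelled cell type was set against its markers. Total counts ran from 27382724 to 34922211 per library. Of the 10 stellate cell markers only Reln, a matrix glycoprotein, was well above the lower end of measurement, with a mean of 39.5 CPM (counts scaled to library size). Acta2 averaged 1.88 CPM, Col1a1 2.20 CPM, and Lrat, which stores retinoids, ran from 0 to 0.371 CPM. The sum of the stellate list was 62.4 to 102 CPM in set 1 and 20.1 to 25.9 CPM in set 2. Reln alone made up 54.8 to 92.2 and 6.71 to 15.4 CPM of it. Of the 8 stellate markers tested, 1 was at least 2-fold higher in set 2 with no overlap (Ngfr) and 2 were lower (Reln and Dcn). Of all genes tested, 8.42% were higher and 8.64% lower by this measure. The 10 macrophage markers found in the tables summed to 7050 to 7533 CPM in set 1 and 16340 to 18160 CPM in set 2, above the stellate sum in every library, which goes against the label. Lyz2 alone made up 984 to 1195 and 8401 to 9941 CPM of the macrophage sum. Of the 10 macrophage markers, 3 were at least 2-fold higher in set 2 with no overlap and 2 were lower (Cd14 and Marco). Other lists were smaller: dendritic cell markers summed to 47.7 to 58.0 and 53.5 to 72.3 CPM in sets 1 and 2, neutrophil markers to 3.06 to 4.45 and 11.3 to 15.4 CPM (of which Csf3r alone made up 0.573 to 0.852 and 9.72 to 12.96 CPM), and T and NK cell markers to 37.3 to 45.8 and 13.2 to 19.2 CPM. B and plasma cell markers stayed at or below 1.41 CPM, and epithelial markers lay between 17.5 and 32.8 CPM. The 9 endothelial markers found summed to 274 to 333 CPM in set 1 and 86.3 to 133 CPM in set 2. Cdh5 alone made up 163 to 187 and 43.6 to 64.8 CPM of this sum. Of 8 tested, 4 were at least 2-fold lower in set 2 with no overlap. Dnase1l3 was higher by 0.46 on the log2 scale with no overlap, and Kdr, Clec4g and Oit3 overlapped. In bulk libraries, fewer cells of a type and less RNA per cell cannot be told apart, and this holds for every level below.

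Among the 9 factors, 8 had levels that did not overlap between the 6 libraries of set 1 and the 6 of set 2, against 54.9% of all genes tested. Cebpa, Maf and Irf8 were at least 2-fold higher in set 2 with no overlap, as were 8.42% of all genes. Cebpb was at least 2-fold lower in set 2 with no overlap, as were 8.64% of all genes. Spi1 and Klf4 were lower in set 2 by less than that, Irf4 and Irf5 were higher by less than that, and Runx1 overlapped. The median size of the set difference, without its sign, was 0.94 on the log2 scale over the 9 factors and 0.38 over all genes tested. Levels in CPM are not corrected for transcript length, so they are compared between libraries and not between genes.

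The promoters of the 4 factors that differed at least 2-fold between the sets are printed here so that their letters can be read beside these values. The sequences are those of RefSeq on the build GRCr8, from 250 bases before to 50 bases after each gene's start, 5′ to 3′ on the gene's strand. Cebpa lies at chr1:96896334-96896633 (plus strand), Maf at chr19:60621307-60621606 (minus strand), Irf8 at chr19:65699034-65699333 (plus strand) and Cebpb at chr3:176816755-176817054 (plus strand). Capitals mark matches to the motifs described after the sequences.
Cebpa: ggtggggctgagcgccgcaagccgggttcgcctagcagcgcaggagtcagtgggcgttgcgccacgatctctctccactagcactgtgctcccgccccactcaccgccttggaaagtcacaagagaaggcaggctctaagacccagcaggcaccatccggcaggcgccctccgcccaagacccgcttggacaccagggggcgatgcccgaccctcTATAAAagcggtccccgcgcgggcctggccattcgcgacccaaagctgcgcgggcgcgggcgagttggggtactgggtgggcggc
Maf: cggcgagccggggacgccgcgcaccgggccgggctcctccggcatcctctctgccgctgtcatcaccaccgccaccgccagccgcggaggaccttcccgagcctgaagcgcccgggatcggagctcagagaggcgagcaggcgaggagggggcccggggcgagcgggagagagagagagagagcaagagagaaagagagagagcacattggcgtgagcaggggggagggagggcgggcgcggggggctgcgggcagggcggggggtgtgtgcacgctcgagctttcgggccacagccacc
Irf8: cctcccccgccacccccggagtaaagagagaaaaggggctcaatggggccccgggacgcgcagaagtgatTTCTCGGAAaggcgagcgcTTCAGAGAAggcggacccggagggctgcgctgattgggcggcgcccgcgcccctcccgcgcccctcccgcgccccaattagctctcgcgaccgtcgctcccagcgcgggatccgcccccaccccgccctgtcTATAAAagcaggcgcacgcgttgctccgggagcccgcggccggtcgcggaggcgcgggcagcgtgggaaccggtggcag
Cebpb: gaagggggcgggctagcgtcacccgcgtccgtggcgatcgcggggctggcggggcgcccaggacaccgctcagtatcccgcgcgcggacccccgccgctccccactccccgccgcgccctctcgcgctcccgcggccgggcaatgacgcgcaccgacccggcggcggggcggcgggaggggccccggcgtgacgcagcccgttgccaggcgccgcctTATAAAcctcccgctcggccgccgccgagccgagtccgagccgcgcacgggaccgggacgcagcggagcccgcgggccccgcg

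An entry of this window was found for 8 of the 9 factors, all but Spi1. These were searched on both strands for 7 motifs. They were the ETS core GAGGAA that PU.1 can bind, the C/EBP motif TTGCNNAA and the interferon regulatory factor motif GAAANNGAA. Signal-dependent motifs were TGANTCA for AP-1 proteins, the core TGACGT of CREB and ATF sites, and TTCNNNGAA for STAT proteins. The TATA box TATAAA was added after the sequences were seen, so its count beside the share of all promoters is no test. TATAAA was present in 5 of the 8 promoters (Cebpa, Cebpb, Irf4, Irf8 and Klf4), against 14.2% of the 33469 promoters in the table. In Cebpa it lay 35 bases before the start, in Cebpb 33, in Irf8 29 and in Irf4 51. In Klf4 the matches were on the other strand, read as TTTATA, 146 and 78 bases before the start. The STAT motif was present in 2 of the 8, Irf8 and Klf4, against 8.87% of all promoters. The Irf8 promoter held it 180 and 161 bases before the start. The ETS core was found in Irf4 alone, against 27.6% of all promoters. No match in these windows was found for the C/EBP motif (10.6% of all promoters), the interferon regulatory factor motif (9.71%), the AP-1 motif (7.33%) or the CREB and ATF core (7.94%). These matches describe letters only: a window with a match is not a bound site, and one without says nothing of the factor.

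Spi1, the gene of PU.1, had a high count in every library, from 5763 to 10404 deposited expected counts. Its levels were 296 and 291 CPM in vehicle 17 and 18, 293 and 309 CPM in hAEC 3 and 4, and 298 and 292 CPM in hAMSC 7 and 8. In set 2 they were 209 and 226 CPM in vehicle 19 and 20, 197 and 226 CPM in hAEC 11 and 12, and 222 and 211 CPM in hAMSC 15 and 16. Every set 2 library was below every set 1 library, and the difference was -0.46 on the log2 scale. Of all genes tested, 56.8% had a smaller set difference, so this size was ordinary. Within each set the treatments overlapped.

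Runx1 encodes the RUNX factor that acts early in blood formation and stays expressed in macrophages. Its levels were 27.4 and 29.8 CPM in vehicle 17 and 18, 30.0 and 28.8 CPM in hAEC 3 and 4, 31.1 and 29.0 CPM in hAMSC 7 and 8, 26.4 and 36.9 CPM in vehicle 19 and 20, 28.6 and 35.5 CPM in hAEC 11 and 12, and 29.8 and 29.3 CPM in hAMSC 15 and 16. The sets overlapped, with medians of 29.4 and 29.6 CPM, and the difference of 0.07 was larger than that of 11.8% of genes. In set 2, vehicle 20 and hAEC 12 stood above the other 4 libraries.

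**Figure D1:**
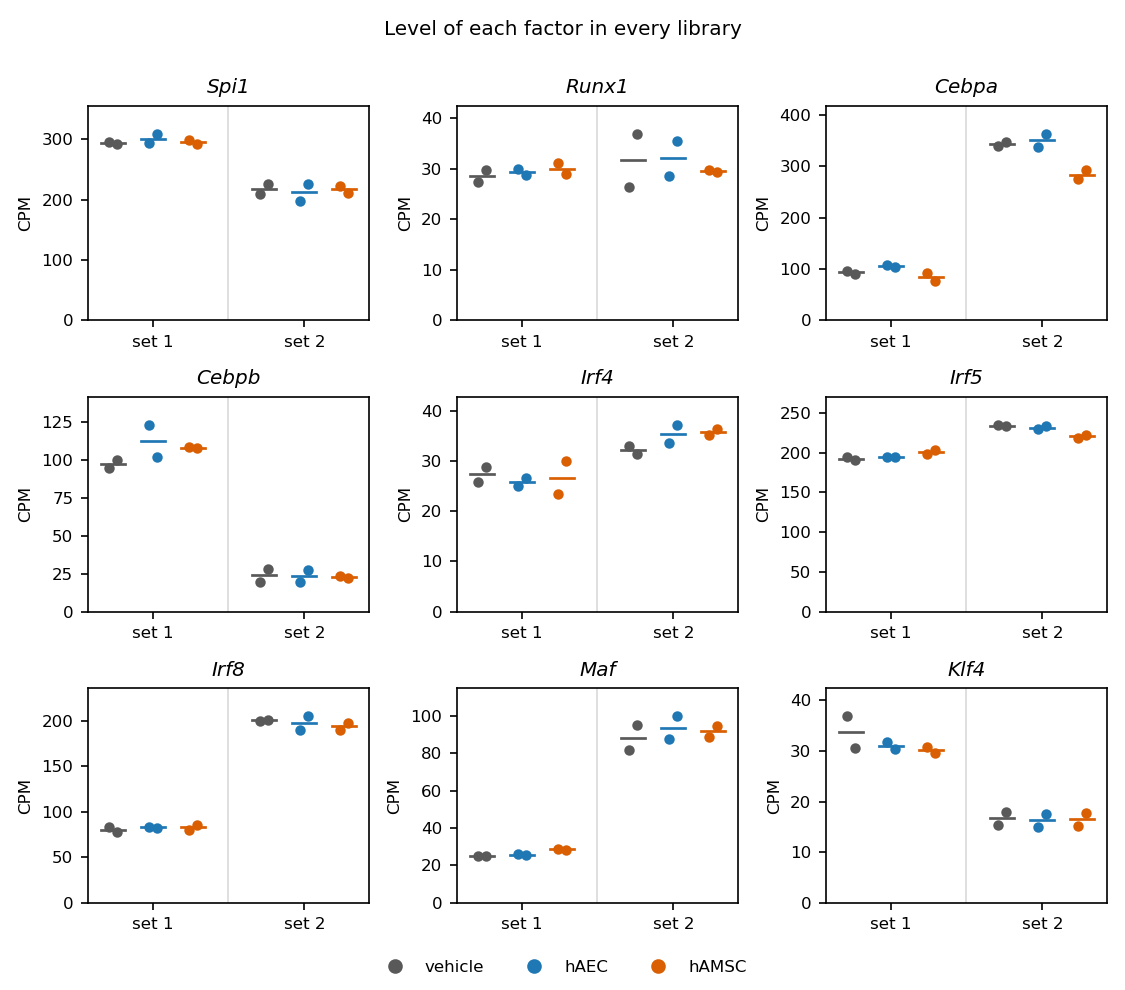
Level of each of the 9 factors in CPM (vertical axes, linear, starting at 0), 1 point per library, parted by library set on the horizontal axis and coloured by treatment; the short bars are the means of 2 libraries. Cebpa, Irf8 and Maf are high in set 2, Cebpb and Klf4 in set 1, and Runx1 is level across both.

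Cebpa encodes C/EBP-alpha, the factor of granulocyte and macrophage progenitors that also serves hepatocytes and fat cells. Its levels were 97 and 89.7 CPM in vehicle 17 and 18, 108 and 104 CPM in hAEC 3 and 4, and 91.7 and 76.1 CPM in hAMSC 7 and 8. In set 2 they were 339 and 348 CPM in vehicle 19 and 20, 338 and 363 CPM in hAEC 11 and 12, and 274 and 294 CPM in hAMSC 15 and 16. The lowest library of set 2 was well above the highest of set 1, and the mean was 3.46-fold higher (log2 difference 1.79, larger than that of 91.9% of genes). Over all 4 libraries of a group the mean was 218 ± 144 CPM (SD, n = 4) with vehicle, 228 ± 142 CPM with hAEC and 184 ± 116 CPM with hAMSC, where the SD is mostly the gap between the sets.

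Cebpb encodes C/EBP-beta, which is induced by inflammatory signals and acts on cytokine and acute phase genes. It had levels of 94.7 and 100 CPM in vehicle 17 and 18, 123 and 102 CPM in hAEC 3 and 4, 108 and 107 CPM in hAMSC 7 and 8, and only 19.5 and 28.4 CPM in vehicle 19 and 20, 19.2 and 27.4 CPM in hAEC 11 and 12, and 23.2 and 22.4 CPM in hAMSC 15 and 16. The mean was 4.54-fold lower in set 2 (log2 difference -2.19, larger in size than that of 94.7% of genes). This was the largest set difference among the 9 factors, and it ran opposite to that of Cebpa.

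Irf8 encodes an interferon regulatory factor needed for monocytes and dendritic cells, which pairs with PU.1 on DNA. It had 83.0 and 77.3 CPM in vehicle 17 and 18, 83.4 and 82.7 CPM in hAEC 3 and 4, 80.1 and 85.5 CPM in hAMSC 7 and 8, 200 and 201 CPM in vehicle 19 and 20, 190 and 205 CPM in hAEC 11 and 12, and 190 and 197 CPM in hAMSC 15 and 16. The mean was 2.40-fold higher in set 2 (log2 difference 1.26, larger than that of 85.9% of genes). Libraries of a set lay close together whatever the treatment. Dendritic cell markers, which could accompany Irf8, overlapped between the sets in their sum, but the list was split. Of 7 tested, Flt3 (1.81), Cd1d1 (1.34) and Itgae (0.73) were higher in set 2 with no overlap. Batf3 (-2.61), Zbtb46 (-1.72) and Clec9a (-1.66) were lower, and the remaining marker overlapped. Flt3, Itgae and Clec9a were low, at most 3.303, 3.978 and 3.209 CPM. The part of dendritic cells in the level of Irf8 was not tested.

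Irf5, whose product carries Toll-like receptor signals to inflammatory cytokine genes, ran from 190 to 203 CPM in set 1 (median 194) and from 218 to 235 CPM in set 2 (median 231). Irf4, whose product acts in alternative activation and in dendritic and B cells, ran from 23.4 to 29.9 CPM in set 1 (median 26.3) and from 31.3 to 37.2 CPM in set 2 (median 34.5). Neither overlapped between the sets, but the log2 differences of 0.22 for Irf5 and 0.38 for Irf4 were larger than those of 32.9% and 49.5% of genes. Irf5 was the only one of the 9 factors with fractional expected counts in every library, as RSEM gives where reads are divided between genes, so its level carries a further uncertainty.

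Maf encodes c-MAF, a large MAF factor of resident macrophages that acts on the gene of interleukin 10. It had 25.2 and 25.2 CPM in vehicle 17 and 18, 26.0 and 25.3 CPM in hAEC 3 and 4, 28.8 and 28.4 CPM in hAMSC 7 and 8, 81.8 and 94.8 CPM in vehicle 19 and 20, 87.3 and 99.7 CPM in hAEC 11 and 12, and 88.4 and 94.7 CPM in hAMSC 15 and 16. The log2 difference between the sets was 1.78, larger than that of 91.8% of genes, and close to that of Cebpa. Liver endothelium is another site of Maf. The summed endothelial markers, of which Cdh5 was the largest part, were lower in set 2, where Maf was higher. Dnase1l3 of that list was higher in set 2. The part of these markers in the level of Maf was not tested.

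Klf4 encodes a zinc finger factor of monocytes that endothelium and epithelium also express. It ran from 29.7 to 36.9 CPM in set 1 (median 30.6) and from 15.0 to 18 CPM in set 2 (median 16.5), with vehicle 17 the highest library. The mean was 1.92-fold lower in set 2 (log2 difference -0.94, larger in size than that of 79.0% of genes). The endothelial sum was lower in set 2 as well, and its part in the level of Klf4 was not tested.

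**Figure D2:**
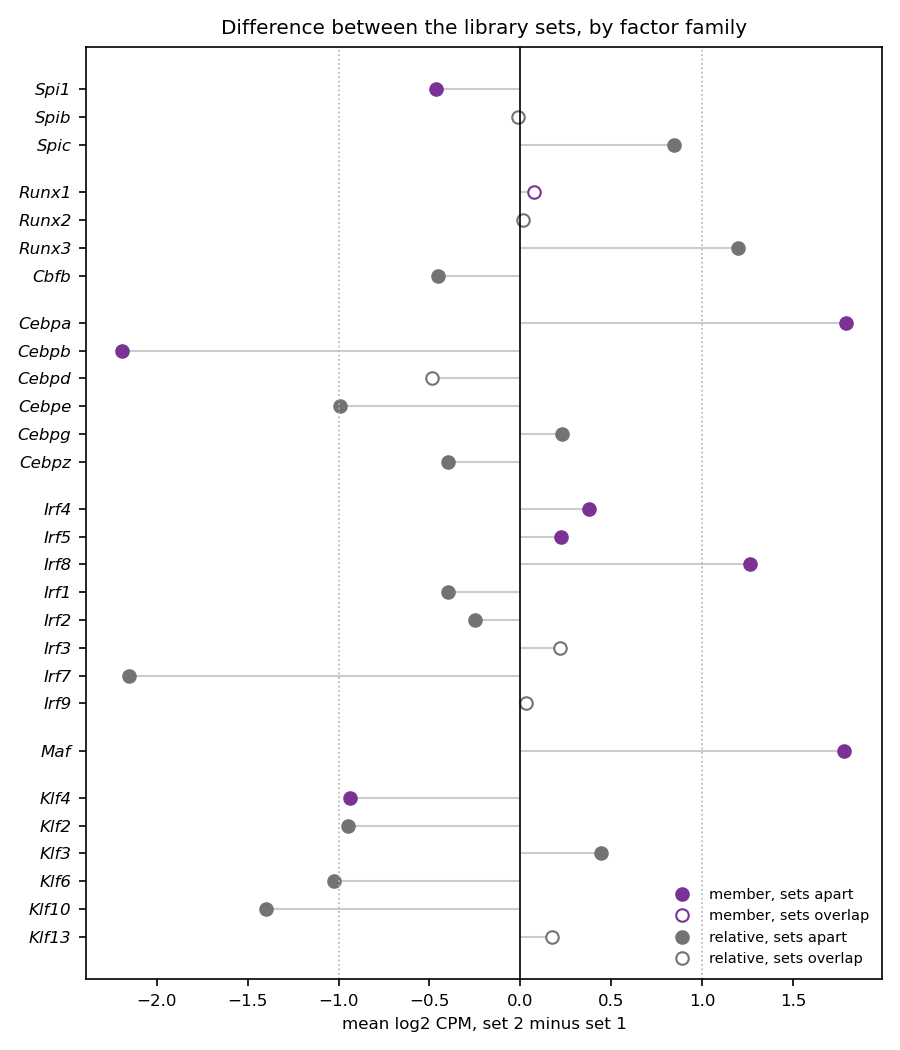
Mean log2 CPM of set 2 minus that of set 1 (horizontal axis) for the 9 factors and 19 tested relatives, grouped by family; filled points are genes whose 6 and 6 libraries do not overlap, open points those that overlap, and dotted lines mark a 2-fold difference. Cebpa and Maf lie farthest to the right, and Cebpb and Irf7 farthest to the left.

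Of 20 listed relatives from the same families 19 were tested (Mafa, the MAF factor of pancreatic beta cells, was not). Of these, 1 was at least 2-fold higher in set 2 with no overlap (8.42% of all genes were) and 3 were lower (8.64% of all genes). Their median set difference was -0.25, against -0.006 over all genes. Runx3, a RUNX factor of lymphoid and myeloid cells, was the higher one (1.20). Irf7, the factor of the interferon response, went from 462 to 527 CPM down to 81.1 to 138 CPM (-2.15), and Klf10 (-1.40) and Klf6 (-1.02) were the other lower ones. Families did not move as units: Cebpa and Cebpb were on opposite sides, as were Irf8 and Irf7. Spic, a PU.1 relative of iron-handling macrophages, was higher in set 2 by 0.85 without reaching 2-fold. A further 36 regulators of myeloid cells were listed, of which 34 were tested. In set 2, 5 of these were at least 2-fold higher and 8 lower with no overlap (median -0.32), led by Pou2f2 (1.96), Lyl1 (1.73) and Bcl6 (1.64) on the higher side and Batf3 (-2.61) and Zbtb46 (-1.72), both also dendritic cell markers, on the lower side. Gfi1b was the other gene at the lower end, at 0.270 to 0.541 CPM in set 1 and with 0 counts in all 6 libraries of set 2, so no size is given for it.

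Textbook target genes of the factors were then read in the same sets. Of all genes tested, 8.42% were at least 2-fold higher in set 2 with no overlap and 8.64% were lower. Targets of MAF were mostly higher in set 2: of 13 tested, 9 were at least 2-fold higher with no overlap and 2 were lower, with a median of 1.87. Stab1, a scavenger receptor, went from 26.9 to 35.7 CPM in set 1 to 1102 to 1468 CPM in set 2 (log2 difference 5.39), Gas6, a bridging ligand for dying cells, was higher by 3.43, and Selenop, a secreted selenoprotein, by 2.65. The lower targets were Lyve1, a hyaluronan receptor (-4.45), and Myc, a gene of cell growth (-2.12), and Cd163, the haemoglobin scavenger receptor, overlapped between the sets (-0.19).

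Targets of C/EBP proteins were mostly lower in set 2: of 11 tested, 2 were at least 2-fold higher and 8 lower with no overlap, with a median of -2.28. The inflammatory cytokine gene Il1b went from 635 to 723 CPM in set 1 to 40.0 to 50.5 CPM in set 2 (-3.90). Arg1 (-3.87) and the activating receptor gene Trem1 (-3.63) were lower too. The higher targets were Csf3r, the receptor for granulocyte colony-stimulating factor (3.91), and Lyz2, a lysozyme of phagocytes (3.03). The list does not part the targets of C/EBP-alpha from those of C/EBP-beta, and Csf3r, Arg1 and Il6 are on other lists as well. Csf3r is also a neutrophil marker. Of the other neutrophil markers, Camp was lower in set 2 (1.83 to 2.78 CPM against 0.424 to 0.988 CPM), S100a8 overlapped, and Mpo, Elane and Ltf each had a count in 1 library alone. The part of neutrophils in the level of Csf3r was not tested.

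The list of IRF4 and KLF4 targets in alternative activation had 3 of 13 tested genes at least 2-fold higher and 8 lower with no overlap, with a median of -1.19. Mrc1, the mannose receptor (2.13), Pparg (1.32) and Clec10a (1.19) were higher, and the chemokine gene Ccl17 (-4.10), the cytokine feedback gene Cish (-3.99) and Arg1 (-3.87) were lower, so the list was split. Of 11 tested targets of IRF5 and IRF8, 2 were higher (Tlr9 by 2.98 and Cst3 by 1.25) and 5 lower, with a median of -0.46. Gbp2 (-1.60), Il6 (-1.56) and Isg15 (-1.36) were the lowest of these, and Ctss was higher by 0.75. Il6 was near the lower end of measurement, at 0.788 to 1.20 CPM in set 1 and 0 to 0.697 CPM in set 2, so its size is uncertain. The same holds for Il23a, also lower, at 0.662 to 1.16 CPM in set 1 and 0.169 to 0.621 CPM in set 2. Tnf ran from 0 to 23.7 CPM within set 1 and overlapped. Il12a and Il12b of this list did not pass the filter on low counts. The 24 tested PU.1 targets were balanced, 3 higher and 3 lower, beside 8.42% and 8.64% of all genes, with a median of 0.21. Csf3r (3.91), Aif1 (1.55) and Fes (1.44) were higher, and Csf2rb (-1.90), Ncf4 (-1.05) and Msr1 (-1.04) lower.

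**Figure D3:**
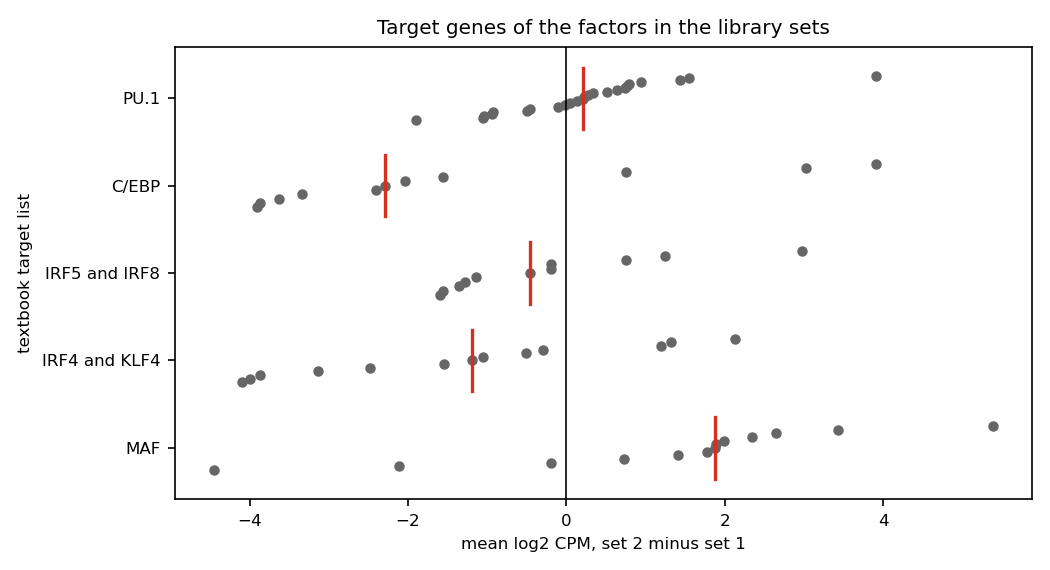
Mean log2 CPM of set 2 minus that of set 1 (horizontal axis) for each tested gene of 5 textbook target lists (vertical axis; points are staggered for legibility), with the list median as a red bar. MAF targets have the highest median, 1.87, and C/EBP targets the lowest, -2.28.

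The comparison of hAEC with vehicle asked whether the epithelial cells changed the rat cells. None of the 9 factors passed in edgeR's quasi-likelihood test at an adjusted p of 0.05, and neither did any gene (0% of 13539), although 759 genes had an unadjusted p under 0.05. DESeq2 called 2 genes and limma voom 1, none of them a factor. Spi1, Irf5 and Irf8 had log2 fold changes between -0.00 and 0.01, with 95% intervals that stayed within 0.10 of 0 on either side. Cebpa had the smallest p of the 9, with a log2 fold change of 0.10 (SE 0.05, adjusted p = 0.909 in the edgeR fit). Its hAEC libraries lay above vehicle in set 1 but overlapped with it in set 2. Cebpb had the widest interval, -0.21 to 0.40 around 0.10. None of the 9 had hAEC libraries on 1 side of vehicle in both sets, against 7.99% of all genes.

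With hAMSC, 32 genes passed against vehicle (0.236% of those tested, 21 higher and 11 lower), and none of the 9 factors was among them. Leaving out 1 library moved this count between 8 (without vehicle 18) and 153 (without hAMSC 15). Cebpa came nearest. Its hAMSC libraries had 91.7 and 76.1 CPM beside 97 and 89.7 CPM with vehicle in set 1, which overlap, and 274 and 294 CPM beside 339 and 348 CPM in set 2, which do not. The log2 fold change was -0.22 (SE 0.05, 95% interval -0.33 to -0.10), the 111th smallest p of all genes, and the adjusted p was 0.147 in the edgeR fit. Within set 1 alone it was -0.15 and within set 2 alone -0.28. The call turns on the tool and on 1 library: DESeq2 gave -0.22 with an adjusted p of 0.0197, and without hAMSC 7 edgeR gave -0.28 with an adjusted p of 0.0217.

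Maf had the next smallest p, with a log2 fold change of 0.11 for hAMSC against vehicle (95% interval -0.01 to 0.24, adjusted p = 0.542 in the edgeR fit). Its hAMSC libraries were above vehicle in set 1 and between the 2 vehicle libraries in set 2. Klf4 was at -0.09 and Irf4 at 0.06, with intervals of -0.26 to 0.07 and -0.10 to 0.22. Spi1, Irf5 and Irf8 lay between -0.01 and 0.00, with intervals inside -0.10 to 0.10. In the separation by library, 0 of 9 factors had hAMSC on 1 side of vehicle in both sets, against 8.43% of all genes.

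The direct comparison of hAEC with hAMSC gave the largest treatment difference among the factors, again in Cebpa. In set 1 the hAEC libraries had 108 and 104 CPM and the hAMSC libraries 91.7 and 76.1 CPM, and in set 2 they had 338 and 363 CPM against 274 and 294 CPM, so hAEC was higher than hAMSC in every pair of libraries of a set. Of all genes, 7.53% parted these groups in 1 direction in both sets, and Cebpa was the only factor that did. The log2 fold change was 0.32 (SE 0.05, 95% interval 0.20 to 0.44), and its p ranked 4th of 13539. Its adjusted p in the edgeR fit was 0.0681, above the threshold of 0.05, where 3 genes passed (0.0222% of those tested; 50 without hAMSC 7, and 0 without hAEC 3, hAMSC 8 or hAMSC 15). The size was similar within each set, 0.33 in set 1 and 0.31 in set 2.

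This call also depends on the processing. Cebpa passed with scaling by library size alone (adjusted p = 0.0471), with no expression filter (0.00645), with limma voom (0.036), with DESeq2 (4.776e-05) and without hAMSC 7 (0.00357), with log2 fold changes of 0.32 to 0.38. It did not pass when the set was left out of the model, where the adjusted p was 1, nor when any 1 of the other 11 libraries was left out. Nor did it pass with relative log expression scaling, with a minimum mean of 5 CPM, or within either set alone. The order of the Cebpa means was hAMSC, vehicle, hAEC in both sets: 83.9, 93.4 and 106 CPM in set 1 and 284, 343 and 351 CPM in set 2. In set 1 the neighbours hAMSC and vehicle overlap, and in set 2 the neighbours vehicle and hAEC do.

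**Figure D4:**
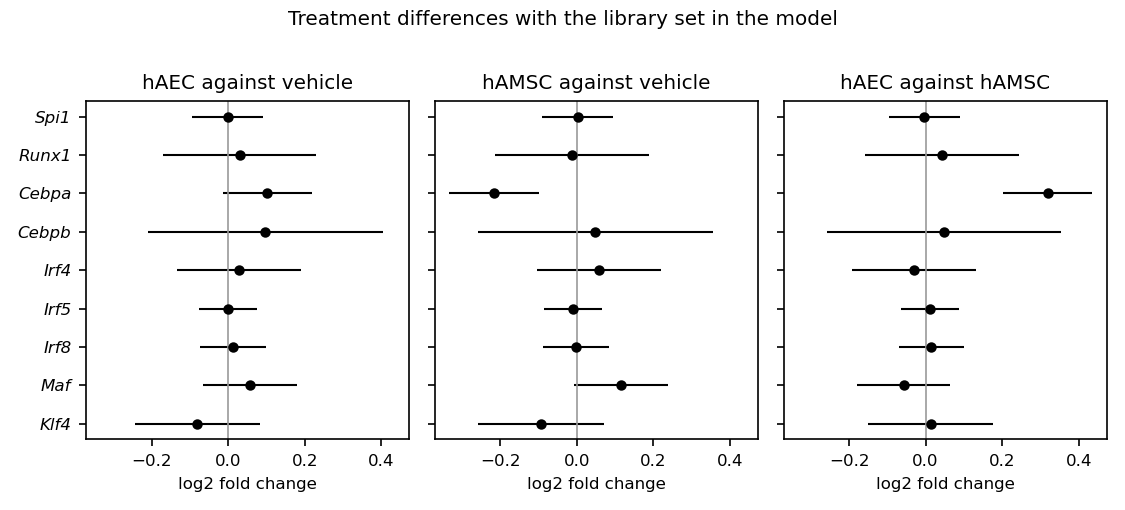
Log2 fold change (horizontal axes) of each factor in the 3 treatment comparisons, from the edgeR fit with the library set as a term; points are estimates and bars are 95% intervals. The intervals of Cebpa leave out 0 in both comparisons that involve hAMSC, at -0.22 and 0.32, and those of the other 8 factors include 0.

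Hepatocytes also express Cebpa, so their markers stand beside it. Tf, the transferrin gene, made up most of the hepatocyte sum, which was 519 to 651 CPM in set 1 and 672 to 819 CPM in set 2 (Tf alone averaged 643 CPM). Alb, the albumin gene, was at most 8.09 CPM. Among the markers other than Tf it made up most of the summed CPM in every library. The 7 hepatocyte markers other than Tf summed to 10 and 10.7 CPM in vehicle 17 and 18 and to 1.55 and 7.60 CPM in hAMSC 7 and 8. In set 2 they summed to 3.67 and 5.01 CPM in vehicle 19 and 20 and to 3.27 and 1.87 CPM in hAMSC 15 and 16, so hAMSC was below vehicle in both sets. Tf lay the other way: its log2 fold change for hAMSC against vehicle was 0.17 (SE 0.06, adjusted p = 0.313 in the edgeR fit). It had 573 and 508 CPM in vehicle 17 and 18 beside 649 and 546 CPM in hAMSC 7 and 8, and 684 and 667 CPM in vehicle 19 and 20 beside 816 and 725 CPM in hAMSC 15 and 16. With hAEC the sums of the 7 were 5.23, 7.44, 7.70 and 1.43 CPM in libraries 3, 4, 11 and 12, which overlapped with hAMSC in both sets. Between the libraries of a group and set, the one with the lower sum of the 7 had the higher Cebpa, except in vehicle 19 and 20. The part of these markers in the Cebpa result was not tested.

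The other 8 factors differed between hAEC and hAMSC by -0.06 (Maf) to 0.05 (Cebpb) on the log2 scale, and none of them passed in edgeR's quasi-likelihood test. These intervals bound what was not detected: for Irf5 -0.07 to 0.09, for Spi1 -0.10 to 0.09, for Irf8 -0.07 to 0.10, and for Cebpb, the least precise, -0.26 to 0.35. None of the 9 factors had a treatment effect that passed as different between the sets. The difference of the hAEC effect passed for 0% of genes (731 had an unadjusted p under 0.05 in edgeR, and DESeq2 called 23 genes), and that of the hAMSC effect for 27 genes, or 0.199% (0 without vehicle 19 and 158 without hAMSC 16). The smallest p among the factors was that of Irf5, whose hAMSC effect was 0.15 lower in set 2 than in set 1 (log2 difference -0.15, SE 0.06, adjusted p = 0.444 in the edgeR fit). Its hAMSC libraries were at 199 and 203 CPM beside 194 and 190 CPM with vehicle in set 1, and at 218 and 223 CPM beside 235 and 233 CPM in set 2.

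Among the relatives and the other regulators, 0 of 19 and 0 of 34 tested genes passed in any of the 3 comparisons by edgeR. Their medians were within 0.03 of 0 on the log2 scale, where the medians of all genes were -0.003 for each co-culture against vehicle. The relative with the smallest p for hAEC against vehicle was Cbfb, the shared partner of RUNX proteins, with a log2 fold change of 0.25 (SE 0.06, adjusted p = 0.860 in the edgeR fit); with hAMSC it was 0.22. The vehicle libraries are shared by both values. In the target lists, 2 genes passed for hAMSC against vehicle, both higher: Msr1, a scavenger receptor on the PU.1 list (log2 fold change 0.22, SE 0.04), and Cd163, on the MAF list (0.61, SE 0.09), each with an adjusted p of 0.0277 in the edgeR fit. Msr1 had 1221, 1111, 534 and 548 CPM in vehicle 17 to 20 and 1346, 1304, 653 and 648 CPM in hAMSC 7, 8, 15 and 16. Cd163 had 108, 99.1, 85.5 and 85.1 CPM in vehicle 17 to 20 and 123, 178, 138 and 135 CPM in hAMSC 7, 8, 15 and 16. For both genes hAMSC was above vehicle in both sets, but the calls are near the threshold: Msr1 lost its call without any 1 of 8 libraries (vehicle 18, 19 or 20, hAEC 3 or 4, hAMSC 7, 8 or 16) and Cd163 without any 1 of 7 (vehicle 18, 19 or 20, hAEC 3, 4 or 11, hAMSC 16), with adjusted p of up to 0.114 and 0.128. Both also lost it without the set term and within set 1 alone, and Cd163 with no expression filter (adjusted p = 0.0601). So 1 of 24 PU.1 targets and 1 of 13 MAF targets passed for hAMSC against vehicle. Of the other lists, 0 of 11 C/EBP, 0 of 11 IRF5 and IRF8, and 0 of 13 IRF4 and KLF4 targets passed in any comparison. The median of the PU.1 list was 0.002 and that of the MAF list -0.05 for hAMSC against vehicle.

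The genes most like each factor were named by Pearson's r of log2 CPM over the 12 libraries, among 9119 genes with a mean of at least 5 CPM. The libraries share the sets, so r was also taken after subtracting each set's mean. By both measures Hopx, a homeodomain-only protein without DNA binding of its own, and Tnfrsf21, a death receptor, were most like Cebpa. For Hopx r was 0.999, and 0.962 after subtraction, and for Tnfrsf21 r was 0.998 and 0.935. Hopx had 18.3 and 17.6 CPM in vehicle 17 and 18, 21.5 and 21.3 CPM in hAEC 3 and 4, 17.3 and 14.2 CPM in hAMSC 7 and 8, 91.0 and 95.4 CPM in vehicle 19 and 20, 84.7 and 87.6 CPM in hAEC 11 and 12, and 62.6 and 71.7 CPM in hAMSC 15 and 16. As with Cebpa, hAEC was above hAMSC in both sets. Hopx and Tnfrsf21 were picked for their likeness to Cebpa over these same libraries, so a shared order of the treatments is no separate result. Neither gene passed: Hopx had a log2 fold change of 0.40 for hAEC against hAMSC and an adjusted p of 0.109, and Tnfrsf21 had 0.19 and an adjusted p of 0.210, in the edgeR fit.

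**Figure D5:**
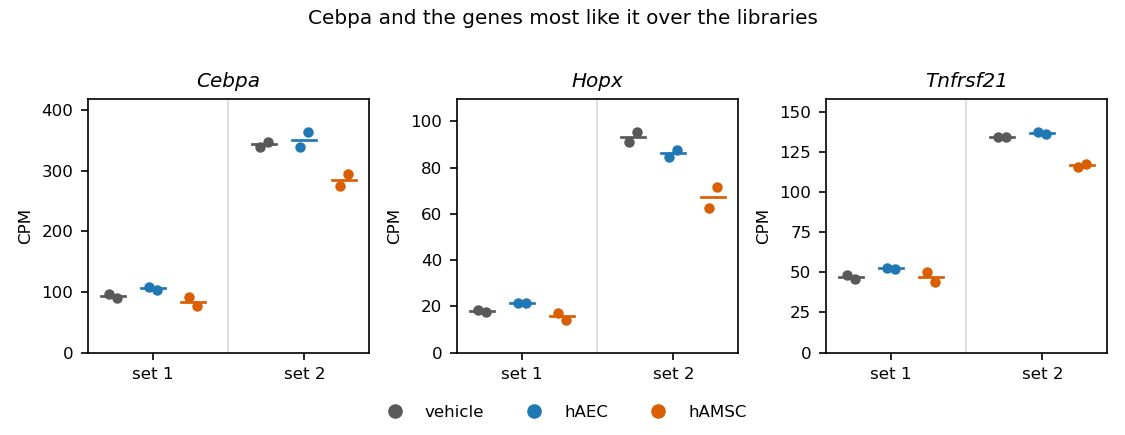
Level in CPM (vertical axes, linear, starting at 0) of Cebpa, Hopx and Tnfrsf21, 1 point per library, by library set and coloured by treatment; short bars are means of 2 libraries. In set 2 the hAMSC libraries of each gene are below those of hAEC and vehicle. Hopx and Tnfrsf21 were picked for their likeness to Cebpa over these libraries, so the shared pattern is no separate result.

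The other factors had other nearest genes. Irf8 was most like Man1c1 (r = 0.999) and Adcy9 (0.999), Maf most like RT1-CE16 (0.997) and Rassf2 (0.997), and Cebpb most like the immediate early gene Ier2 (0.996) and Acod1 (0.995), which makes itaconate in activated macrophages. Spi1 was most like Igsf8 and Ier2 (0.992 and 0.991), Klf4 most like Nup43 and Ppat (0.986 and 0.986), and Irf5 most like Fchsd2 and Zfand3 (0.988 and 0.985). Irf4 was most like the sialyltransferase gene St8sia4 (0.956) and Rabgap1l (0.950), and Runx1 most like Scand1 and Fbrs (0.872 and 0.855). After subtraction of the set means St8sia4 was again the most like Irf4 (0.921), followed by Kctd5 (0.856). For the rest, subtraction brought up other genes. These were Desi2 and Wipf1 for Maf (0.949 and 0.898), Ogfod2 and Lman2 for Spi1 (0.932 and 0.889), and Akap17a and Scand1 for Cebpb (0.908 and 0.902). They were Map4k5 and Eps15 for Irf5 (0.946 and 0.903), Wdr35 and Serbp1 for Irf8 (0.889 and 0.889), Cdyl and Dnajc19 for Klf4 (0.887 and 0.876), and RT1-CE16 and Junb for Runx1 (0.936 and 0.904).

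Pairs of factors were read the same way. Over the 12 libraries as they are, Maf and Irf8 (r = 0.995) and Spi1 and Cebpb (0.987) were the most alike and Cebpb and Irf8 the most opposed (-0.980), which restates their set differences. After subtraction of the set means Cebpb and Runx1 (0.890), Maf and Runx1 (0.707) and Spi1 and Cebpb (0.697) were the most alike. In set 2 these 4 factors were all lower in vehicle 19 than in vehicle 20 and lower in hAEC 11 than in hAEC 12. Cebpa, Irf8 and Klf4 had the same order, so it does not set these 4 apart. Irf4 and Irf5 were higher in vehicle 19 than in vehicle 20. The correlation of Cebpa with Cebpb was -0.968 before subtraction and 0.213 after it.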

How the data were processed

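Polyadenylated RNA of 12 libraries was analysed, 4 each with vehicle, hAEC and hAMSC. Per the labels' protocols, an RNAqueous-Micro kit served for extraction and a TruSeq stranded mRNA kit for library preparation. The authors deposited expected counts from RSEM; FastQC, Trim Galore, STAR, RSEM and limma, and the builds rn6 and Rnor_6.0, are named per the submitters' processing notes, with versions not given in the sources used here. RSEM divides reads that match more than 1 gene. Of the deposited values 90.1% were whole, 11932 genes were 0 in all libraries, and 197 genes had no symbol.

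Expected counts were rounded and fitted in edgeR 4.0.16 (R 4.3.3): filterByExpr, TMM scaling (factors 0.973 to 1.03), robust quasi-likelihood fit over all 12 libraries with group and library set as terms, two-sided tests, Benjamini-Hochberg adjustment over 13539 genes, threshold 0.05. CPM use the same scaling, with a prior count of 2 for log2 values, and the biological coefficient of variation was 9.91% with the set as a term and 38.9% without it. Effects were compared between sets over the 6 combinations of group and set. Scripts were tested on simulated data. No library was a duplicate of another of its group and set: counts differed by more than sampling noise. Alternatives were another scaling, other filters, DESeq2 1.42.0, limma 3.58.1 voom, no set term, each set alone, and leaving out each library.

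The 9 factors, the lists of relatives, regulators, targets and markers, the library sets and the tests were chosen with earlier results of these data known. The named genes of a list are those called in a treatment comparison, up to 3 of smallest p if none was, and the 3 with the largest set difference in each direction; for each factor, the 2 genes most like it by each measure. The reading of the factors' calls, and of Msr1 and Cd163, under each alternative was added after the data were seen. Itgam, Mpeg1, Nos2 and Saa1 of the lists were not analysed here, and some relatives are not reported here. Promoters were matched by symbol to a RefSeq table of build GRCr8; no coordinate of the counting build is given.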

Additional observations from a re-analysis of the deposited data

How the results depend on the processing

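No paired analysis was possible because the sample numbers of the labels are not shared between the groups. The set differences of the 9 factors kept their direction under scaling by relative log expression or by library size alone and without each library; that of Irf5 was 0.182 with library size alone, against 0.22. The number of factors called was 0 in each comparison, and 1, Cebpa, for hAMSC against vehicle in DESeq2 and for hAEC against hAMSC with library size alone, no expression filter, DESeq2 and limma voom. Leaving out each library gave 0 to 1 factors for both comparisons. The log2 fold change of Cebpa for hAEC against hAMSC was then 0.321, 0.319, 0.322 and 0.320 under these settings and 0.279 to 0.379 without each library; for hAMSC against vehicle it was -0.218 in DESeq2 and -0.275 to -0.177 without each library. No other factor passed under any alternative run.

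Counts of genes moved more. For hAMSC against vehicle 32 genes became 0 without the set term, 52 with no filter, 155 in DESeq2, 86 within set 1, 94 within set 2 and 8 to 153 without each library. For hAEC against hAMSC 3 genes became 0, 26, 80, 1, 58 and 0 to 50 under the same settings, and 10 with limma voom. For hAEC against vehicle DESeq2 gave 2 genes, limma voom 1, set 1 alone 1 and set 2 alone 6. The hAEC effect differed between sets for 23 genes and the hAMSC effect for 113 in DESeq2, and for 0 to 5 and 0 to 158 without each library.

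Directions turned for factors whose log2 fold change was near 0. For hAEC against vehicle Spi1 was 0.00448 without the set term, 0.000161 with relative log expression, 2.94e-05 with library size alone, 0.000493 with no filter, 0.000376 in DESeq2 and 0.0422 within set 1; Irf5 was -0.000663 without the set term and -0.000298 with a minimum mean of 5 CPM; and Irf8 was -0.00177 without the set term. Within set 1, Irf4 was -0.0776, and within set 2, Cebpb was -0.0367, Irf5 -0.0178 and Irf8 -0.0256. For hAMSC against vehicle Spi1 was -0.00604 and Cebpb -0.0719 within set 2, and Irf4 -0.0281, Irf5 0.0726, Irf8 0.0552 and Runx1 0.0783 within set 1. For hAEC against hAMSC Spi1 was 0.00116 without the set term, Spi1 0.0256, Irf5 -0.0492 and Runx1 -0.0329 within set 1, and Maf 0.0305 and Klf4 -0.0146 within set 2.

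Without each library, hAEC against vehicle ranged from -0.0292 to 0.043 for Spi1, -0.0155 to 0.0818 for Irf4, -0.0193 to 0.0146 for Irf5, -0.0194 to 0.0378 for Irf8 and -0.0457 to 0.141 for Runx1. For hAMSC against vehicle the ranges were -0.0142 to 0.0294 for Spi1, -0.0109 to 0.174 for Cebpb, -0.0011 to 0.129 for Irf4, -0.0343 to 0.0128 for Irf5, -0.0373 to 0.016 for Irf8 and -0.0872 to 0.0957 for Runx1. For hAEC against hAMSC they were -0.0317 to 0.0401 for Spi1, -0.0226 to 0.141 for Cebpb, -0.0982 to 0.0284 for Irf4, -0.0116 to 0.0353 for Irf5, -0.00309 to 0.0428 for Irf8, -0.0297 to 0.0648 for Klf4 and -0.0262 to 0.0909 for Runx1. The difference of the hAMSC effect on Cebpa between the sets ranged from -0.251 to 0.0193. Msr1 and Cd163 kept their direction under every alternative run, with 0.204 to 0.266 and 0.514 to 0.712 without each library. The causes of these shifts were not tested.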
